A study of Mus musculus with 24 samples.

Results

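The innate sensing, NF-kB and inflammasome genes described here are 49 listed genes, found on the array by their gene symbol with older symbols of the same gene accepted. Of the 49, 46 had a probe, and 45 had a probe above background on at least 3 of the 24 arrays and were tested. The whole array named 17912 genes, of which 13070 were tested in the same way. Tlr5, Tlr9 and Nlrc4 were not analysed here, and the probes of Nlrp3, the sensor of the best known inflammasome, were above background on 0 and 1 of the 24 arrays. Nlrp3 was therefore not tested, and 43 of the 45 tested genes were above background on all 24 arrays at their brightest probe, Tlr1 (17 arrays) and Nfkb2 (19 arrays) being the exceptions.

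RNA of normal lung parenchyma from single mice of the AIRmax and AIRmin lines was hybridised to Illumina bead arrays, with 1 array for each mouse. The lines were bred for a strong (AIRmax) or a weak (AIRmin) acute inflammatory reaction, and the study asked how their lung transcriptomes differ and how urethane, a chemical that gives mice lung tumours, affects them. Each mouse received 2 intraperitoneal injections of urethane at 1 mg per g body weight, or of saline, 48 h apart, and was killed 21 days later. The groups were 6 AIRmax urethane, 6 AIRmax saline, 6 AIRmin urethane and 6 AIRmin saline mice, each with 3 females and 3 males. No age was found in the labels, and the saline mice were injected on the same schedule as the urethane mice.

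Toll-like receptors at the cell surface recognise bacterial lipids and proteins, and those in endosomes recognise nucleic acids. Most of them signal through the adaptor Myd88 and the Irak kinases to the ubiquitin ligase Traf6, which activates the IkB kinases, frees NF-kB subunits from IkB proteins and starts transcription of cytokine and chemokine genes. Some, but not all, cytosolic sensors of the NOD-like and AIM2-like families instead assemble inflammasomes, which activate caspases. C-type lectin and TREM receptors on myeloid cells signal through adaptors such as Tyrobp. In lung these genes are used by alveolar macrophages and recruited neutrophils and monocytes, and many are also active in epithelium.

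All signals below are log2 values of the deposited normalised intensity, and a probe counted as above background past a log2 signal of 7.95. A call is an adjusted p under 0.05 in limma over all 18130 tested probes, and a gene with several probes is given by the brightest of them. In whole lung tissue, fewer cells of a type and less RNA per cell cannot be told apart. Marker lists showed that libraries differed in content: 10 of 11 lung epithelium markers were above background in every group, with none called between the lines, but squamous epithelium scores were above 1 in 10 mice, of which 5 were AIRmin saline, 9 of 14 skeletal muscle markers were called lower in AIRmax with a median difference of -1.53, and the hepatocyte score of mouse 4 in the AIRmax urethane group was 6.31 while the next highest of any mouse was 0.61. Mouse 20, an AIRmin saline library that its label calls female, had Xist at 7.91, in the range of the males, and Eif2s3y at 11.4. Neutrophil markers were higher in AIRmax, with 4 of 13 called (Cxcr2, Mmp9, Csf3r and S100a8), a median difference of 0.59 and summed intensities of 44174 to 208743 in AIRmax urethane, 60029 to 233685 in AIRmax saline, 42031 to 113918 in AIRmin urethane and 73912 to 107042 in AIRmin saline mice; Mmp8 was not above background in any group. Other immune lists also held calls, with 2 of 8 T cell and 3 of 5 natural killer cell markers called higher and 2 of 9 alveolar macrophage markers called lower in AIRmax. In the same comparison 14% of all genes were called. The macrophage marker Itgax was not above background in either AIRmax group. Median summed alveolar macrophage marker intensity was 83504.5 in AIRmax and 63091.7 in AIRmin urethane mice, and 72386.3 in AIRmax and 86103.8 in AIRmin saline mice. The monocyte marker Cx3cr1 and the dendritic cell marker Itgae were called higher, and the dendritic cell marker Siglech lower. The part of these cells in the member values was not tested except where a score is given as a covariate.

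For the members called between the lines at their brightest probe, a stretch of 250 bases is shown, 5′ to 3′ on the strand of the gene. Each stretch ends just before the most upstream annotated start site. Whether these bases relate to the line differences was not tested. The sequences are from RefSeq on mouse build GRCm38.p6, where 38 of the 49 listed genes had an entry; the others were Ly96, Tlr7, Cd14, Tlr4, Nfkb1, Tyrobp, Relb, Ripk2, Ikbkb, Nfkbiz and Ticam2. Capitals mark matches to the consensus NF-kB (kB) site, searched on both strands with overlapping matches allowed. The windows are chr9:35199966-35200215 (minus strand) for Tirap, chr5:64933559-64933808 (minus strand) for Tlr1, chr2:101678170-101678419 (plus strand) for Traf6 and chr19:46304487-46304736 (plus strand) for Nfkb2.
Tirap: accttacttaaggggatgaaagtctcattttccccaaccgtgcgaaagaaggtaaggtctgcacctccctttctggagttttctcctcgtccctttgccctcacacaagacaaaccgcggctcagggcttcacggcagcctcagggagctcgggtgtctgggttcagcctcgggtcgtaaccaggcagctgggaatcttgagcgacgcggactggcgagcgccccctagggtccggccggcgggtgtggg
Tlr1: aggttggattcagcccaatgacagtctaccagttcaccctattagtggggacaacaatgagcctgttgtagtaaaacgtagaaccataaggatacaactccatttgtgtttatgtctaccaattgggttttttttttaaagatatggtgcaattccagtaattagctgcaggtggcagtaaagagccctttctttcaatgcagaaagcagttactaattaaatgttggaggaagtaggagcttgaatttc
Traf6: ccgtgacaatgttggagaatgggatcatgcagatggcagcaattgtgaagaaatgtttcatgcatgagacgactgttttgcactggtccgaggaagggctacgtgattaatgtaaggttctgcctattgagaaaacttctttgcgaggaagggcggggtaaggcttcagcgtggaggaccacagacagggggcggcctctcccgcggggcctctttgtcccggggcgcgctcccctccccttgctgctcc
Nfkb2: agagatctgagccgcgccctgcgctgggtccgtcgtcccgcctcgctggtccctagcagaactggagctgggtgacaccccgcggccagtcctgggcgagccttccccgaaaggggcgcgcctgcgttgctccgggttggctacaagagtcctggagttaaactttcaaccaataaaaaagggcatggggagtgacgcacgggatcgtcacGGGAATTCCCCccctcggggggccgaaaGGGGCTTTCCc
No kB match was in these windows of Tirap, Tlr1 or Traf6. The Nfkb2 window held 3 matches, which began at positions -39, -38 and -11 from the start site, the first pair overlapping. Over the members with an entry, 10 of 38 (26.3%) had a match in at least 1 window, against 1204 of 27025 genes (4.46%) in the same table. The 10 were Casp4, Nfkb2, Nfkbia, Nfkbie, Nlrp3, Tlr2, Tlr3, Tnfaip3, Tnip1 and Traf3. A match is a description of the letters and not a measured binding site. The list holds genes of the NF-kB route by choice, and a gene with several windows had more chances of a match. The shares therefore cannot be read as a finding about the members.

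Between the lines over all 24 mice, 4 of the 45 members were called, Tirap, Tlr1 and Traf6 higher and Nfkb2 lower in AIRmax. This is 8.89% of the members, where 14% of all tested genes were called, 6.66% as higher and 7.31% as lower in AIRmax. The members' differences were small: their median was 0.12 on the log2 scale and they ranged from -0.53 to 0.76. Their direction was mostly towards AIRmax, with 34 of 45 (75.6%) positive, against 48.7% of all genes, whose median was -0.0038. At an unadjusted p under 0.05 there were 18 members (40%), against 28.7% of all genes. At the brightest probe of each gene, the 12 AIRmax values lay wholly apart from the 12 AIRmin values for no member, and for 0.566% of all genes. With the neutrophil score as a covariate 32 members were positive, with a median of 0.045. The share of all genes that were positive in that fit is not given here.

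**Figure D1:**
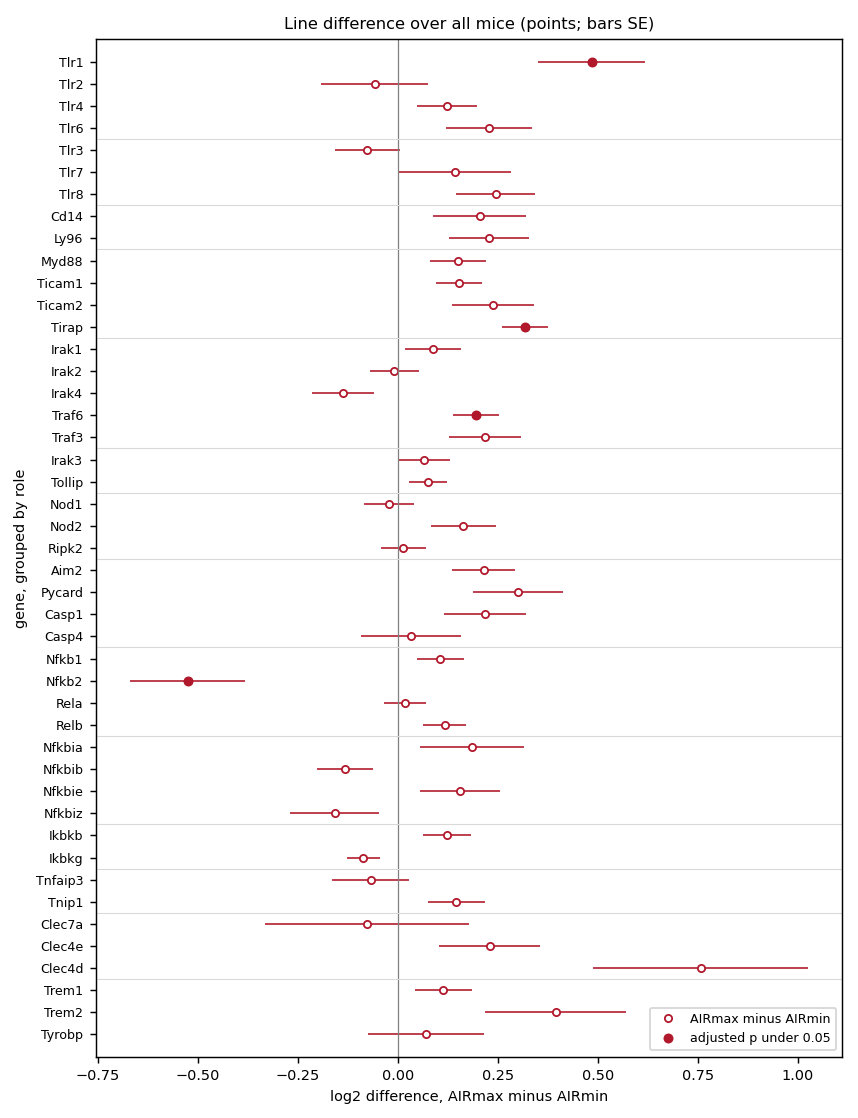
Line difference of the 45 tested members at their brightest probe, as AIRmax minus AIRmin on the log2 scale (x axis), with genes grouped by role (y axis); points are estimates over 24 mice and bars are standard errors. Filled points are the 4 calls, Tlr1, Tirap and Traf6 to the right of 0 and Nfkb2 to the left, and 34 of the 45 points lie to the right of 0.

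Among the surface receptors, Tlr1, which pairs with Tlr2 to bind bacterial lipopeptides, was higher in AIRmax. Its lowest, median and highest log2 signals were 8.02, 8.48 and 8.85 in the 12 AIRmax mice, against 7.43, 7.91 and 8.78 in the 12 AIRmin mice. All 12 AIRmax mice and 5 AIRmin mice passed background, and 4 AIRmax mice exceeded every AIRmin mouse, so the lines overlapped. The difference was 0.48 ± 0.13 (SE), or 1.40-fold, with an adjusted p of 0.0208. It was of similar size in urethane mice (0.49 ± 0.19, adjusted p = 0.170) and in saline mice (0.48 ± 0.19, adjusted p = 0.144), neither of which passed the threshold. With the neutrophil score as a covariate the difference was 0.38 (adjusted p = 0.200), with the squamous score 0.35 (adjusted p = 0.141), and with the squamous, muscle and hepatocyte scores 0.26 (adjusted p = 0.498).

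The other surface and endosomal receptors were not called. Tlr2, the partner of Tlr1 and Tlr6, differed by -0.06 ± 0.13, Tlr4, the receptor of bacterial lipopolysaccharide, by 0.12 ± 0.07 and Tlr6 by 0.23 ± 0.11 (adjusted p = 0.831, 0.304 and 0.175). In the endosomal group, Tlr3, a receptor of double-stranded RNA, differed by -0.08 ± 0.08, while Tlr7, a sensor of single-stranded RNA, and its relative Tlr8 differed by 0.14 ± 0.14 and 0.24 ± 0.10. The co-receptors Cd14 and Ly96, which present lipopolysaccharide to Tlr4, differed by 0.20 ± 0.12 and 0.23 ± 0.10. Of these 8 receptors and co-receptors, 6 had positive differences, and the smallest adjusted p was 0.113, for Tlr8.

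Tirap, the adaptor that brings Myd88 to Tlr2 and Tlr4, was the member with the smallest p between the lines. Its lowest, median and highest signals were 10.96, 11.19 and 11.55 in AIRmax, against 10.62, 10.90 and 11.21 in AIRmin mice, and 6 of 12 AIRmax mice were above every AIRmin mouse. The group means ± SD (n = 6 each) were 11.19 ± 0.11 in AIRmax urethane, 11.26 ± 0.24 in AIRmax saline, 10.87 ± 0.22 in AIRmin urethane and 10.94 ± 0.09 in AIRmin saline mice. The line difference was 0.32 ± 0.06 (1.25-fold, adjusted p = 0.000972), and it was called both in urethane mice (0.31 ± 0.08, adjusted p = 0.0347) and in saline mice (0.32 ± 0.08, adjusted p = 0.0212). These calls within a treatment were lost in 11 and 7 of 37 alternatives. A probe with its own call, ILMN_2792268, gave 0.35 ± 0.05 (adjusted p = 0.000192), while the dimmest of the 3 Tirap probes, ILMN_1214645, gave 0.06 ± 0.07 (adjusted p = 0.572). With the neutrophil score as a covariate the brightest probe still differed by 0.29 (adjusted p = 0.0207), and over the 14 mice with a squamous score of at most 1, in an additive model, by 0.36 (adjusted p = 0.0566).

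The other adaptors had positive differences that were not called. Myd88, the adaptor shared by most of the receptors, differed by 0.15 ± 0.07 (adjusted p = 0.169). Ticam1, the adaptor of Tlr3, differed by 0.15 ± 0.06 (adjusted p = 0.0872) and Ticam2, which links Ticam1 to Tlr4, by 0.24 ± 0.10 (adjusted p = 0.133).

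**Figure D2:**
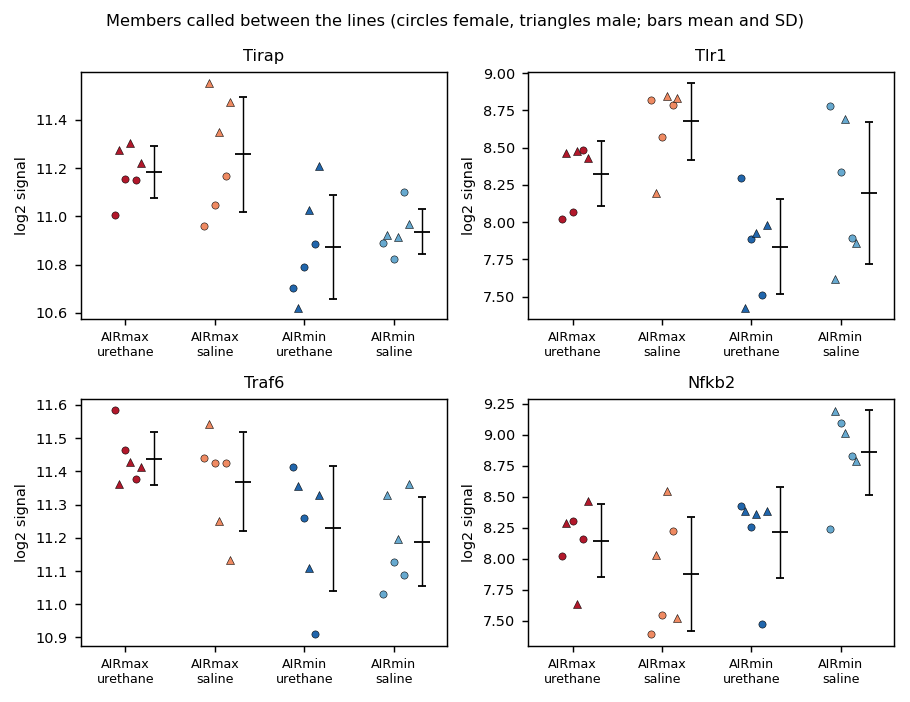
Log2 signal of the 4 members called between the lines (y axis, a panel for each gene) in the 4 groups of 6 mice (x axis); circles are females, triangles males, and bars are the group mean and SD. Tirap, Tlr1 and Traf6 are higher in AIRmax mice with overlap, and for Nfkb2 the AIRmin saline group stands highest with a mean of 8.86.

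Downstream of the adaptors, Traf6, the ubiquitin ligase that activates the kinases of the NF-kB route, was called at its brightest probe. Its lowest, median and highest signals were 11.13, 11.42 and 11.58 in AIRmax, against 10.91, 11.23 and 11.41 in AIRmin mice. Of the 12 AIRmax mice, 8 were above every AIRmin mouse, and the lines overlapped in the remaining ones. The difference was 0.19 ± 0.06 (1.14-fold, adjusted p = 0.0291). The call was not shared by the other Traf6 probes, which gave -0.01 (ILMN_1259162, adjusted p = 0.925) and -0.09 (ILMN_2427560, adjusted p = 0.615). It was also lost when AIRmin urethane mouse 14, AIRmin saline mouse 18 or AIRmin saline mouse 3 was left out, where the adjusted p was 0.0532, 0.0527 and 0.0524. Over the 14 mice with a squamous score of at most 1, in an additive model, the difference was 0.10. With the squamous, muscle and hepatocyte scores as covariates it was 0.28 (adjusted p = 0.0699).

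Irak4, the kinase that starts signalling at the Myd88 complex, was not called at its brightest probe but was called at another. At the brightest probe, ILMN_2812164, the difference was -0.14 ± 0.08 (adjusted p = 0.259), with lowest, median and highest signals of 9.38, 9.70 and 10.15 in AIRmax and 9.56, 9.88 and 10.23 in AIRmin mice. At ILMN_1226783 the signals were 9.01, 9.43 and 9.67 in AIRmax, against 8.45, 8.59 and 8.83 in AIRmin mice, so that all 12 AIRmax mice were above all 12 AIRmin mice. There the difference was 0.78 ± 0.07 (1.71-fold, adjusted p = 2.27e-07), and it was 0.75 in urethane mice (adjusted p = 7.31e-05) and 0.80 in saline mice (adjusted p = 2.89e-05). The third probe, ILMN_2672136, passed background in 9 AIRmax and 8 AIRmin mice and differed by 0.02 ± 0.08 (adjusted p = 0.934). The 3 probes of Irak4 thus gave unlike values in the same RNA, and which of them follows the transcript was not tested.

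**Figure D3:**
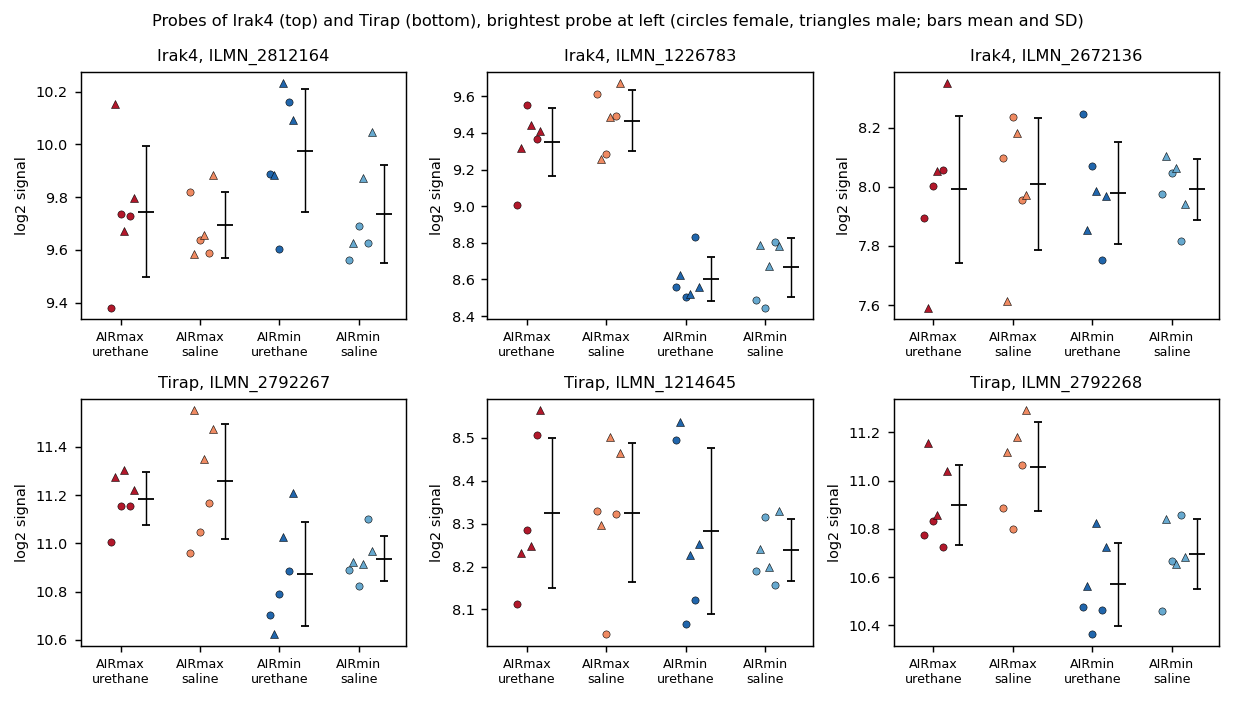
Log2 signal at each of the 3 probes of Irak4 (top row) and of Tirap (bottom row) in the 4 groups of 6 mice (x axis), brightest probe at the left; circles are females, triangles males, and bars are the group mean and SD. At Irak4 probe ILMN_1226783 the AIRmax mice lie between 9.01 and 9.67 and the AIRmin mice between 8.45 and 8.83, while the other Irak4 probes overlap between the lines.

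The remaining kinases, ligases and brakes of the Toll-like receptor route did not differ past the threshold. Irak1 differed by 0.09 ± 0.07 and Irak2 by -0.01 ± 0.06, and Traf3, the ligase that steers signals towards interferon genes, by 0.22 ± 0.09 (adjusted p = 0.116). The brakes Irak3, a kinase-like inhibitor of the Myd88 complex, and Tollip, an inhibitor of Irak kinases, differed by 0.06 ± 0.07 and 0.07 ± 0.05.

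Of the NOD receptors of bacterial cell wall fragments, Nod1 differed by -0.02 ± 0.06 and Nod2 by 0.16 ± 0.08, and their shared kinase Ripk2 by 0.01 ± 0.06. In saline mice Nod2 was the single member whose lines did not overlap at the brightest probe, as was the case for 3.42% of all genes. Its signals were 8.52 to 9.02 in the 6 AIRmax saline mice, against 8.23 to 8.50 in the 6 AIRmin saline mice. That difference, 0.33 ± 0.12, had an adjusted p of 0.103. It was called with only the arrays compared (0.33, adjusted p = 0.0296), with array weights (0.39, adjusted p = 0.0116) and without AIRmax saline mouse 9 (0.40, adjusted p = 0.0491), and over all alternatives the adjusted p reached 0.368. In urethane mice the Nod2 ranges overlapped, at 8.36 to 8.85 in AIRmax and 8.26 to 9.06 in AIRmin mice.

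The 4 inflammasome members all had positive differences without a call. The adaptor Pycard, which joins sensors to caspases, had lowest, median and highest signals of 8.94, 9.16 and 9.64 in AIRmax, against 8.08, 8.99 and 9.27 in AIRmin mice, a difference of 0.30 ± 0.11 (adjusted p = 0.0840). The DNA sensor Aim2 had 8.22, 8.80 and 9.07 in AIRmax, against 8.06, 8.57 and 8.95 in AIRmin mice, a difference of 0.21 ± 0.08 (adjusted p = 0.0796). Casp1, which matures the inflammasome cytokines, differed by 0.22 ± 0.10 (adjusted p = 0.169). Casp4, the sensor of lipopolysaccharide in the cytosol, differed by 0.03 ± 0.12 (adjusted p = 0.902). The lines overlapped for all 4.

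Among the NF-kB subunits, Nfkb2, which encodes a precursor processed in the non-canonical NF-kB route, was lower in AIRmax. Its lowest, median and highest signals were 7.39, 8.10 and 8.55 in AIRmax, against 7.48, 8.41 and 9.20 in AIRmin mice, and 8 AIRmax and 11 AIRmin mice passed background. The difference was -0.53 ± 0.14 (1.44-fold lower, adjusted p = 0.0205). In saline mice it was -0.98 ± 0.20 (1.97-fold lower, adjusted p = 0.00665), with signals of 7.39 to 8.55 in AIRmax saline, 3 of 6 above background, and 8.24 to 9.20 in AIRmin saline mice, 6 of 6 above background. Of the 6 AIRmax saline mice, 5 lay below every AIRmin saline mouse. In urethane mice the means ± SD were 8.15 ± 0.29 in AIRmax and 8.22 ± 0.37 in AIRmin mice (n = 6 each), a difference of -0.07 ± 0.20 (adjusted p = 0.906).

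The higher Nfkb2 group, AIRmin saline, also had the highest median sums of squamous and of skeletal muscle marker signal. Summed squamous marker intensity was 6461 to 22088 in AIRmax saline and 6956 to 289788 in AIRmin saline mice, and 14 of the 16 tested squamous markers were called lower in AIRmax in the saline comparison. Summed skeletal muscle marker intensity was 8845 to 41370 in AIRmax saline and 11873 to 204755 in AIRmin saline mice, and 9 of the 14 tested muscle markers were called lower in AIRmax there. The AIRmin saline mouse with a squamous score under 1, mouse 18, had an Nfkb2 signal of 9.01, and the 5 mice with scores above 1 had 8.24 to 9.20. With the squamous score as a covariate the line difference over all mice was -0.63 (adjusted p = 0.0210), and with the squamous, muscle and hepatocyte scores it was -0.63 (adjusted p = 0.120) over all mice and -1.20 (adjusted p = 0.0685) in saline mice. Over the 14 mice with a squamous score of at most 1, in an additive model, it was -0.27. Mouse 18 was the only AIRmin saline mouse among those 14, so that fit can say little about the difference in saline mice. With the neutrophil score as a covariate the line difference over all mice was -0.40 (adjusted p = 0.209).

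The other subunits and their regulators were not called. Nfkb1 differed by 0.11 ± 0.06, Rela by 0.02 ± 0.05 and Relb, the partner of the Nfkb2 product, by 0.12 ± 0.05 (adjusted p = 0.160). The IkB proteins, which hold NF-kB in the cytosol or act with it in the nucleus, went both ways, with Nfkbia at 0.19 ± 0.13, Nfkbie at 0.15 ± 0.10, Nfkbib at -0.13 ± 0.07 and Nfkbiz at -0.16 ± 0.11. The kinase subunits Ikbkb and Ikbkg, which mark IkB proteins for breakdown, had differences of 0.12 ± 0.06 and -0.09 ± 0.04. The ubiquitin-editing inhibitor Tnfaip3 and its partner Tnip1 had differences of -0.07 ± 0.10 and 0.15 ± 0.07.

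Of the lectin and TREM receptors, Clec4d, a receptor of mycobacterial glycolipid found on neutrophils and macrophages, had the largest difference of all 45 members without passing the threshold. Its lowest, median and highest signals were 9.64, 10.25 and 12.84 in AIRmax, against 9.13, 9.78 and 10.84 in AIRmin mice. In AIRmax 4 mice, all males, stood above every AIRmin mouse and the others lay among them. The difference was 0.76 ± 0.27 (adjusted p = 0.0702), and 0.01 ± 0.16 (adjusted p = 0.983) with the neutrophil score as a covariate. It was called in the additive model over the 14 mice with a squamous score of at most 1 (1.38, adjusted p = 0.0265), with array weights (0.84, adjusted p = 0.0173), and without AIRmax saline mouse 9 (0.96, adjusted p = 0.00385), AIRmin urethane mouse 17 (0.85, adjusted p = 0.0460) or AIRmax urethane mouse 16 (0.88, adjusted p = 0.0325). Trem2, a lipid receptor of macrophages, differed by 0.39 ± 0.18 (adjusted p = 0.149), and Clec4e, the partner of Clec4d, by 0.23 ± 0.13. Clec7a, the receptor of fungal glucan, differed by -0.08 ± 0.25, Trem1, a receptor that amplifies neutrophil and monocyte responses, by 0.11 ± 0.07, and Tyrobp, the adaptor of the TREM receptors, by 0.07 ± 0.15.

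Clec4d, Clec7a, Trem2, Tyrobp and Nfkb2 were the 5 members that varied most between mice of the same line, treatment and sex. The SD within such sets of 3 mice, pooled over the 8 sets, was 0.72 for Clec4d, 0.68 for Clec7a, 0.47 for Trem2, 0.38 for Tyrobp and 0.38 for Nfkb2. The median SD was 0.21 over the 45 members and 0.16 over all genes, and the smallest were 0.087 for Ikbkg and 0.11 for Tollip. The highest Clec4d signals were 12.84 and 11.75 in AIRmax saline mice 24 and 21, and 11.86 and 11.45 in AIRmax urethane mice 1 and 2. The same 4 mice had the highest neutrophil scores, at 2.01, 1.07, 1.42 and 0.80.

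For these 5 members 10 correlations with marker scores were computed over the 24 mice, with permutation p values from 100000 resamples and Benjamini-Hochberg adjustment. The points share arrays and thus the normalisation. Scores were shuffled over all 24 mice without regard to line, treatment or sex, so the p values also take in differences between the groups. No p value was computed for r within a line. Clec4d followed the neutrophil score with r = 0.92 and rho = 0.84 (permutation p = 2e-05, the smallest these resamples give, and 4e-05, adjusted p = 0.00010 and 0.00040), and r was 0.84 without the 2 mice farthest from the median score. Within AIRmax its r was 0.96 and within AIRmin 0.70. Tyrobp followed the same score with r = 0.77 and rho = 0.67 (permutation p = 8e-05 and 0.00044, adjusted p = 0.000267 and 0.00147), r was 0.61 without the 2 farthest mice, and r was 0.89 within AIRmax and 0.63 within AIRmin. Tyrobp also went with the score of monocytes and interstitial macrophages, with r = 0.56 and rho = 0.61 (permutation p = 0.00542 and 0.00182, adjusted p = 0.0108 and 0.00455), r = 0.44 without the 2 farthest mice, and r = 0.52 within AIRmax and 0.74 within AIRmin. Clec4d had r = 0.50 and rho = 0.51 with that second score (permutation p = 0.0147 and 0.0127, adjusted p = 0.0246 and 0.0212), and r = 0.40 without the 2 farthest mice. Trem2 followed it with r = 0.82 and rho = 0.75 (permutation p = 2e-05 and 0.00010, adjusted p = 0.00010 and 0.00050), r = 0.80 without the 2 farthest mice, and r = 0.78 within AIRmax and 0.81 within AIRmin. For Clec7a and that score r was 0.60 and rho 0.53 (permutation p = 0.00232 and 0.00762, adjusted p = 0.0058 and 0.0152), r was 0.56 without the 2 farthest mice, and r was 0.85 within AIRmax but 0.34 within AIRmin. With the neutrophil score Clec7a had r = 0.42 and rho = 0.46 (permutation p = 0.0423 and 0.0259, adjusted p = 0.0605 and 0.0371). Its r with that score was 0.48 without the 2 farthest mice, 0.55 within AIRmax and 0.40 within AIRmin. For Trem2 and the neutrophil score r was 0.33 and rho 0.37 (permutation p = 0.121 and 0.0764, adjusted p = 0.151 and 0.096). Nfkb2 had r of -0.29 and -0.28 with the neutrophil and the monocyte scores, neither with a permutation p under 0.05 (p = 0.168 and 0.185).

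**Figure D4:**
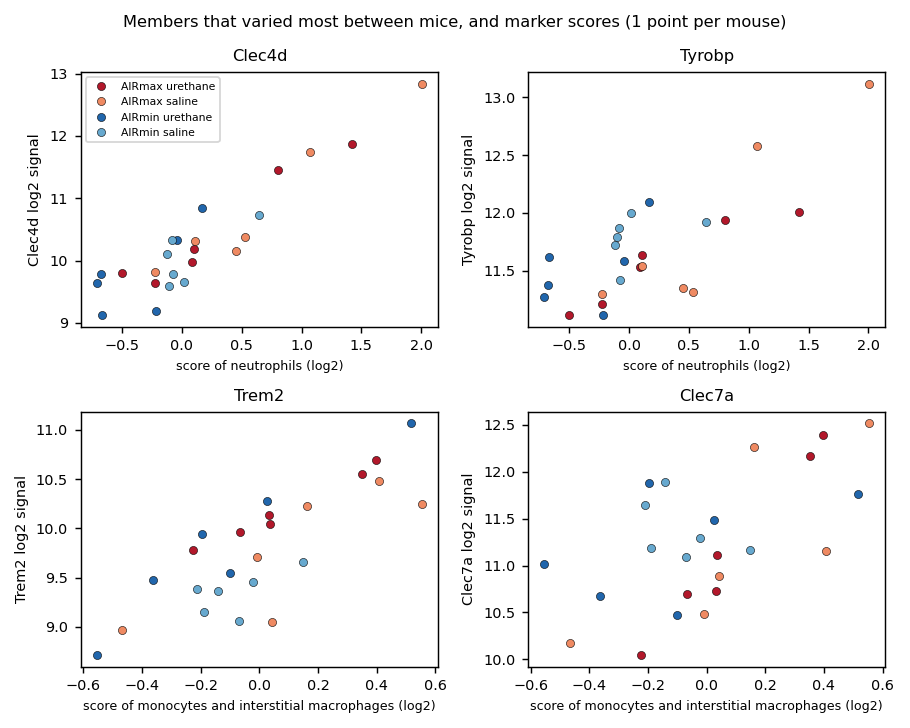
Log2 signal of Clec4d and Tyrobp against the neutrophil score (top row) and of Trem2 and Clec7a against the score of monocytes and interstitial macrophages (bottom row); each point is 1 of 24 mice, coloured by group, and a score is a mean deviation of marker genes in log2 units. Clec4d rises along the neutrophil score with r = 0.92, and the point at a score of 2.01 is AIRmax saline mouse 24.

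Libraries also differed in how the members as a whole stood in their group. AIRmax urethane mouse 4, the mouse with the high hepatocyte score, was the lowest of its group of 6 for 31 of the 45 members, with a median deviation of -0.20 from the group median. Its squamous, skeletal muscle and T cell scores were also high, at 4.06, 2.64 and 1.73. AIRmax saline mouse 9 was lowest for 15 members. Without mouse 4 the line comparison called 8 members, adding Aim2, Ticam2, Tlr4 and Tlr8. Without mouse 9 it called 10, adding Aim2, Casp1, Clec4d, Clec4e, Ly96 and Myd88, and without AIRmin saline mouse 23 it called 7, adding Ticam1, Tnip1 and Traf3. The members Tirap, Tlr1, Traf6 and Nfkb2 were among the calls in all of these fits. The number of calls among the other members thus changed with single mice. The share of all genes called in each of these fits is not given here, so the counts cannot be read as particular to the members. The part of the hepatocyte, squamous, muscle and T cell signal of mouse 4 in its member values was not tested.

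In the comparison of the lines within urethane mice, 1 of 45 members was called, Tirap, where 3.94% of all genes were called, and 6 members (13.3%) had an unadjusted p under 0.05, against 18.7% of all genes. Within saline mice 2 of 45 were called, Tirap and Nfkb2, where 7.17% of all genes were called, and 11 (24.4%) had an unadjusted p under 0.05, against 20.8% of all genes. Median member differences were 0.08 in urethane and 0.14 in saline mice.

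Urethane called no member in limma, at 21 days after treatment. Over all mice 0 of 45 were called, where 0.765% of all genes were, and 2 members (4.44%) had an unadjusted p under 0.05, against 12.7% of all genes. In AIRmax 0 were called (0.230% of all genes, with 1 member and 8.57% of all genes at an unadjusted p under 0.05) and in AIRmin 0 (0.260% of all genes, with 2 members and 11.1% of all genes at an unadjusted p under 0.05). The median member difference was -0.04 over all mice, -0.06 in AIRmax and -0.02 in AIRmin mice.

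The 2 members with the smallest p over all mice moved in opposite directions without a call. Tlr1 had lowest, median and highest signals of 7.43, 8.04 and 8.49 in the 12 urethane mice, against 7.62, 8.63 and 8.85 in the 12 saline mice, a difference of -0.36 ± 0.13 (adjusted p = 0.263). It was above background in 8 of 12 urethane and 9 of 12 saline mice. Trem2 ranged between 8.72 and 11.06 in urethane mice (mean 10.02 ± 0.62, SD, n = 12), against 8.97 and 10.48 in saline mice (mean 9.56 ± 0.51, SD, n = 12), a difference of 0.45 ± 0.18 (adjusted p = 0.290). In both cases the treatments overlapped. Within AIRmax, Myd88 had 13.26, 13.50 and 13.71 in urethane mice, against 13.38, 13.76 and 14.09 in saline mice, and the difference was -0.22 ± 0.10 (adjusted p = 0.528). Within AIRmin, Nfkb2 differed by -0.64 ± 0.20 (adjusted p = 0.253) and Irak4, at its brightest probe, by 0.24 ± 0.11 (adjusted p = 0.440). At the Irak4 probe ILMN_1226783 the AIRmin signals overlapped, at 8.51 to 8.83 in urethane and 8.45 to 8.81 in saline mice.

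Whether urethane acted differently in the lines was tested by their interaction, which called 0 of 45 members and 0 of all 13070 genes in limma, with 1 member and 834 genes at an unadjusted p under 0.05. That member was Nfkb2, whose urethane difference was 0.27 in AIRmax and -0.64 in AIRmin mice, a difference between them of 0.91 ± 0.29 (95% interval 0.31 to 1.52, adjusted p = 0.663).

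**Figure D5:**
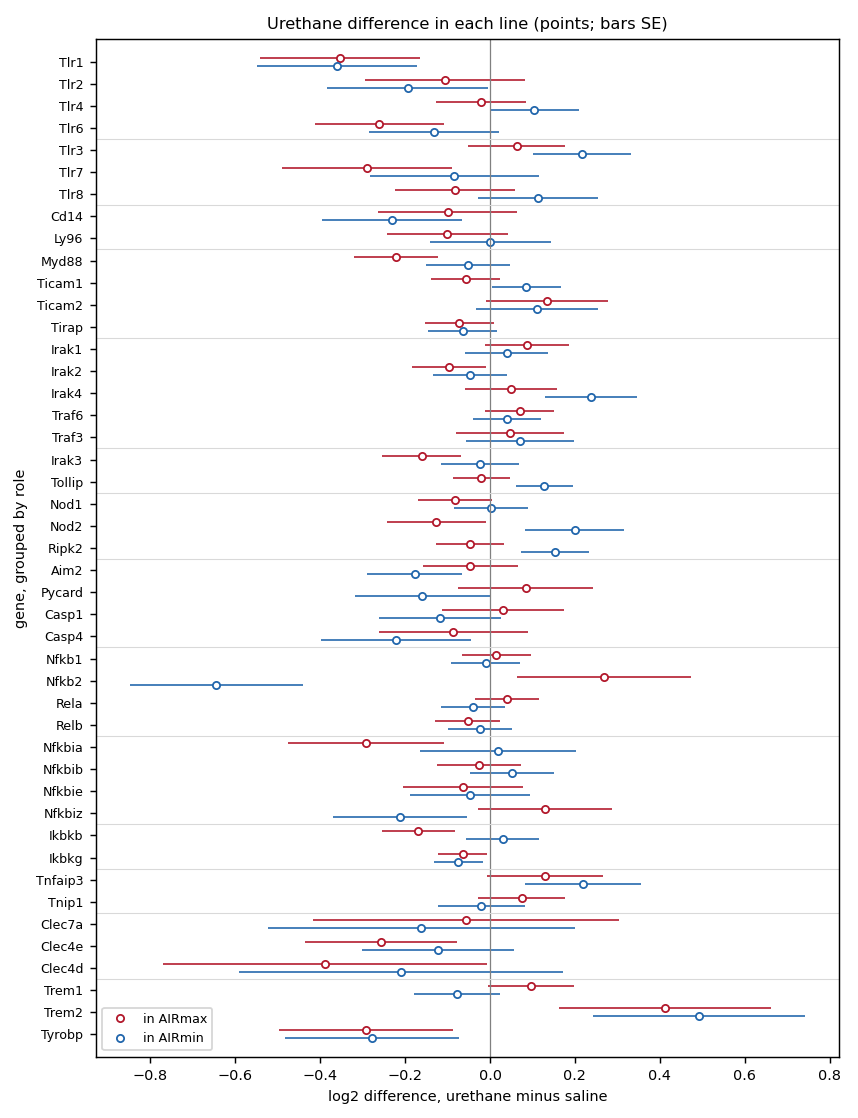
Urethane difference of the 45 tested members at their brightest probe, as urethane minus saline on the log2 scale (x axis), in AIRmax (red) and AIRmin (blue) mice, with genes grouped by role (y axis); points are estimates from 6 against 6 mice and bars are standard errors. No member was called in either line, and Nfkb2 is the member whose points lie farthest apart, at 0.27 in AIRmax and -0.64 in AIRmin mice.

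Between the sexes 0 of 45 members were called in limma, where 0.122% of all genes were, and 8 members (17.8%) had an unadjusted p under 0.05, against 13.3% of all genes. Irak1, the X-linked kinase next to Irak4 in the Myd88 route, had the smallest p. Its lowest, median and highest signals were 8.70, 8.97 and 9.31 in females, against 9.02, 9.25 and 9.52 in males, and 7 of 12 females were below every male. The difference, female minus male, was -0.31 ± 0.07 (adjusted p = 0.0768), and -0.33 ± 0.07 (adjusted p = 0.0865) without mouse 20, whose label and Xist signal differ. Clec4d had the largest difference by size, -0.67 ± 0.27 (adjusted p = 0.290). The other X-linked members Tlr7, Tlr8 and Ikbkg differed by 0.05 ± 0.14, 0.13 ± 0.10 and -0.07 ± 0.04.

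Genes of the same pathways outside the list were compared between the lines in the same fit, in which 14% of all genes were called. Of 23 other NF-kB pathway genes 3 were higher in AIRmax and 1 was lower. The higher ones were Bcl3, a nuclear partner of NF-kB subunits, at 0.56 ± 0.11 (adjusted p = 0.00308), Rbck1, a subunit of the linear ubiquitin ligase, at 0.24 ± 0.06 (adjusted p = 0.0137), and the ligase Traf2 at 0.18 ± 0.06 (adjusted p = 0.0498), and the lower one was the kinase partner Tab1 at -0.25 ± 0.05 (adjusted p = 0.00262). Of 10 other Toll-like receptors and accessory proteins 0 were called in limma, with 3 at an unadjusted p under 0.05. Of 11 other inflammasome and NOD-like receptor genes 1 was higher, Mefv, the pyrin sensor, at 0.55 ± 0.14 (adjusted p = 0.0127). Of 10 nucleic acid sensors and interferon regulatory factors 1 was higher, the kinase Ikbke at 0.29 ± 0.09 (adjusted p = 0.0339), and of 12 C-type lectin and TREM signalling genes 1 was higher, the adaptor Hcst at 0.44 ± 0.13 (adjusted p = 0.0281). Of 20 NF-kB target genes 2 were higher, Il1b, an inflammasome cytokine, at 0.98 ± 0.28 (adjusted p = 0.0246) and Sele, an endothelial adhesion molecule, at 0.26 ± 0.08 (adjusted p = 0.0423). The median difference of those 20 targets was -0.04, with 8 positive. Urethane called 0 genes of these lists over all mice in limma, and the number at an unadjusted p under 0.05 was 3 of the 23 NF-kB pathway genes, 2 of the 20 targets, 1 of the 11 inflammasome genes and 0 in each of the other lists.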

How the data were processed

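Per the labels, lung RNA was labelled with biotin and hybridised to Illumina arrays, 1 array for each of 24 mice. The values used are the normalised intensity values that the authors deposited for 25697 probes, with BeadStudio named in the submitters' processing notes. From the values, column medians were 370.1 to 370.9 and sorted columns differed by at most 0.871%, so arrays had been brought to a common distribution, and no further normalization was applied. A further 72 columns of other deposited tables could not be tied to a mouse and were not used. Symbols were updated through RefSeq (20443 current, 4090 older symbols updated, 1164 kept). Background was set from the mode of all log2 values (7.43) and the spread below it, at an upper quantile of 0.01, which gave 7.95. Intensities were log2 transformed, and 18130 probes above background on at least 3 arrays were fitted with limma 3.58.1 in R 4.3.3 (lmFit, eBayes), with a mean for each of the 8 combinations of line, treatment and sex, 16 residual degrees of freedom and Benjamini-Hochberg adjustment over all tested probes. Scores are means over a marker list of log2 deviations. The fit was tested on simulated data. The number of arrays limits the precision.

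The members and all lists were chosen with earlier results of these data known. Every member is accounted for, called members are described in full, up to 4 called genes of each pathway list are named, and the uncalled member with the smallest p is named where a comparison has no call; further members are named by role after their values were seen. Alternatives were an offset before log2, other probe filters, normexp, quantile normalization, array weights, a trended and robust prior, a fit without sex, any probe of a gene, tissue scores as covariates, fewer arrays, and each mouse left out in turn.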

Additional observations from a re-analysis of the deposited data

Results flagged for a closer look

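Among the 45 tested members in the 4 groups of 6 mice, 3 of 180 sets of values held a mouse that stood far from the rest of its group, where chance alone gives about 1 in 20. Tlr4 in AIRmax urethane mouse 4 was at a log2 signal of 9.630, with the next lowest mouse of that group at 10.166. Mouse 4 is also the mouse with the hepatocyte score of 6.31, and it had a squamous score of 4.06 and a skeletal muscle score of 2.64. The part of those tissues in the value was not tested. Casp1 in AIRmax saline mouse 9 was at 12.190, with the next lowest mouse at 12.741. Nfkb2 in AIRmin urethane mouse 17 was at 7.476, below the background limit of 7.95, with the next lowest mouse at 8.256 and the highest at 8.428. Without mouse 17 the Nfkb2 interaction was 0.77 (adjusted p = 0.696), against 0.91 (adjusted p = 0.663) with it.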

How the results depend on the processing

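The 4 calls between the lines over all mice became 2 with only the authors' filtered probes, where Tlr1 and Nfkb2 have no probe, 16 with array weights and 1 with the squamous, muscle and hepatocyte scores as covariates, and leaving out each mouse in turn gave 3 to 10. In urethane mice the 1 call became 0 with no sex term, with those 3 scores, with the neutrophil score and with only the arrays compared, became 2 where any probe of a gene counted, and was 0 to 1 with each mouse left out; it was lost without AIRmax urethane mouse 1, 2, 5 or 6 and without AIRmin urethane mouse 7, 8 or 13. In saline mice the 2 calls became 1 with the authors' filtered probes, with no sex term, with the squamous score and with the neutrophil score, 0 with the 3 scores and 11 with array weights, and were 1 to 7 with each mouse left out, with 7 without AIRmax saline mouse 9 and 1 without AIRmin saline mouse 3 or 20 or AIRmax saline mouse 22. The urethane count over all mice was 0 to 1 with each mouse left out, with Tyrobp called without AIRmax saline mouse 9. The sex count was 1 (Irak1) with array weights and 0 to 1 with each mouse left out, with Irak1 called without AIRmin urethane mouse 8 and Clec4e without AIRmax saline mouse 9. The counts for urethane within each line and for the interaction were 0 in every alternative run. The shares of all genes called in these alternative fits are not given here, so a rise or fall of a count cannot be read as particular to the members. No called difference changed sign in any alternative. Over all mice, Tirap kept its call in 36 of 37 alternatives at the brightest probe, the exception being the additive model without the 10 mice with squamous scores above 1 (adjusted p = 0.0566), and Irak4 probe ILMN_1226783 kept it in 37 of 37. That additive model called 3 members, Casp1, Clec4d and Pycard, and none of the 4. Mouse 18 was the only AIRmin saline mouse left in that model, so it can say little about the lines in saline mice. Tlr1 lost its call in 4 alternatives, Traf6 in 5 and Nfkb2 in 3, and the cause was not tested. No paired analysis was possible because no mouse number is shared between groups. Tlr1 and Nfkb2 lie near background, so that their differences are compressed at the low end.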
